A study of Mus musculus with 6 samples.

Results

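The 32 genes described here encode the machinery of glycolysis, lactate handling and glycogen turnover in the mouse heart. They were taken by a list of symbols matched to Ensembl identifiers through the GENCODE M21 annotation of GRCm38. All 32 were found among the 52550 mouse genes of the count files, and all 32 passed the filter on low counts that left 14860 genes for testing. The study compared lysates of heart tissue from mice at postnatal day 7, with 3 control and 3 GR-cKO libraries. GR-cKO mice lack the glucocorticoid receptor, encoded by Nr3c1, in cardiomyocytes, and no treatment is named for either group. The Cre driver, the deleted exon and what alleles the controls carry are not given in the labels. Libraries of one group are named as separate biological replicates, so tests set group differences against variation between hearts. The edgeR test estimates that variation with information shared over genes.

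Libraries were made with a kit that reads only the 3′ end of polyadenylated transcripts, so counts do not grow with transcript length. Levels are given in CPM, reads per 1000000 reads of the library after scaling by the trimmed mean of M-values (TMM), and are set side by side between genes on that basis, with the exceptions for gene copies and overlapping genes named further down. Each library had 18135540 to 22999192 reads. Nr3c1, the gene targeted, had 115 ± 15.8 CPM in controls and 54.3 ± 4.47 CPM in the GR-cKO group (n = 3 each, SD), and all 3 GR-cKO libraries lay below all 3 controls (log2 fold change -1.08, SE 0.125, edgeR adjusted p = 0.00101). Cardiomyocyte marker genes were abundant in every library, as the 9 listed (Myh6, Tnnt2 and others) summed to 69212 to 81578 CPM in controls and 76111 to 92688 CPM in the GR-cKO group. GR-cKO replicate 3 stood apart from the other libraries. Gm42418, a transcript that overlaps ribosomal RNA sequence, took 10.9% of its mouse gene reads (95% Wilson interval 10.92 to 10.95%, counting error only), against 5.47 to 7.69% in the other 5. In the same library 8 genes of cycling cells summed to 233 CPM, against 354 to 447 CPM in the other 5.

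Glycolysis turns glucose into pyruvate in the cytosol. Glucose enters through transporters, is trapped by hexokinase, committed by phosphofructokinase and split by aldolase, and the lower steps return ATP and pyruvate, which lactate dehydrogenase can convert to lactate. Glycogen is the stored form of glucose, built by glycogen synthase on a glycogenin primer and released by glycogen phosphorylase. The fetal heart relies strongly on glycolysis, and after birth the heart turns to fatty acids while many steps change from ubiquitous or fetal isoforms to muscle isoforms. Glucocorticoids rise around birth and have been linked to the maturation of the heart.

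No gene of the set passed the test of GR-cKO against control. The edgeR quasi-likelihood test with Benjamini-Hochberg adjustment over all tested genes called 0 of 32 members, with a smallest adjusted p of 0.998, and 1 gene of all tested, Nr3c1, which is 0.00673%. At an unadjusted p under 0.05 there was 1 member, Pfkfb1, or 3.12% of the set, beside 4.2% of all tested genes, and DESeq2 had 2. Without GR-cKO replicate 2 there were 5 such members (15.6%, beside 5.64% of all genes), and without control replicate 2 there were 0 (2.83% of all genes). Over all genes 2.07% had such a p and were higher in GR-cKO hearts, and 2.13% were lower. The groups did not overlap for 5 members, or 15.6%, beside 9.97% of all tested genes. By library totals there were 3 such members, or 9.38% beside 9.29% of all genes, and by spike-in scaling 2, or 6.25% beside 6.25%. By TMM Tpi1 was higher in all 3 GR-cKO hearts (4.7% of all genes were), and the other 4, Hk2, Gapdh, Pfkfb1 and Ugp2, were lower in all 3 (5.27% of all genes were). Log2 fold changes were positive for 14 and negative for 18 members, while 51.3% of all tested genes were positive. Spike-in scaling turned this to 18 positive and 14 negative members, with 60.3% of all tested genes positive, so it moved genes in general and not the members alone. Their median was -0.03, beside 0.01 over all tested genes, and with spike-in scaling 0.02 beside 0.05.

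The data bounded the size of most differences closely. For 21 members the 95% interval of the fold change lay within 1.5-fold in either direction, and for 28 within 2-fold, while 47.8% and 72.2% of all tested genes reached these limits. The 23 members with a mean of at least 20 CPM had standard errors (SE) of 0.106 to 0.224 on the log2 scale. Slc2a4 and Gapdh were the members of that level whose intervals crossed 1.5-fold. Summed over all 32 genes, the level was 6316 ± 271 CPM in controls and 6330 ± 262 CPM in the GR-cKO group (n = 3 each, SD), a description without a test.

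**Figure D1:**
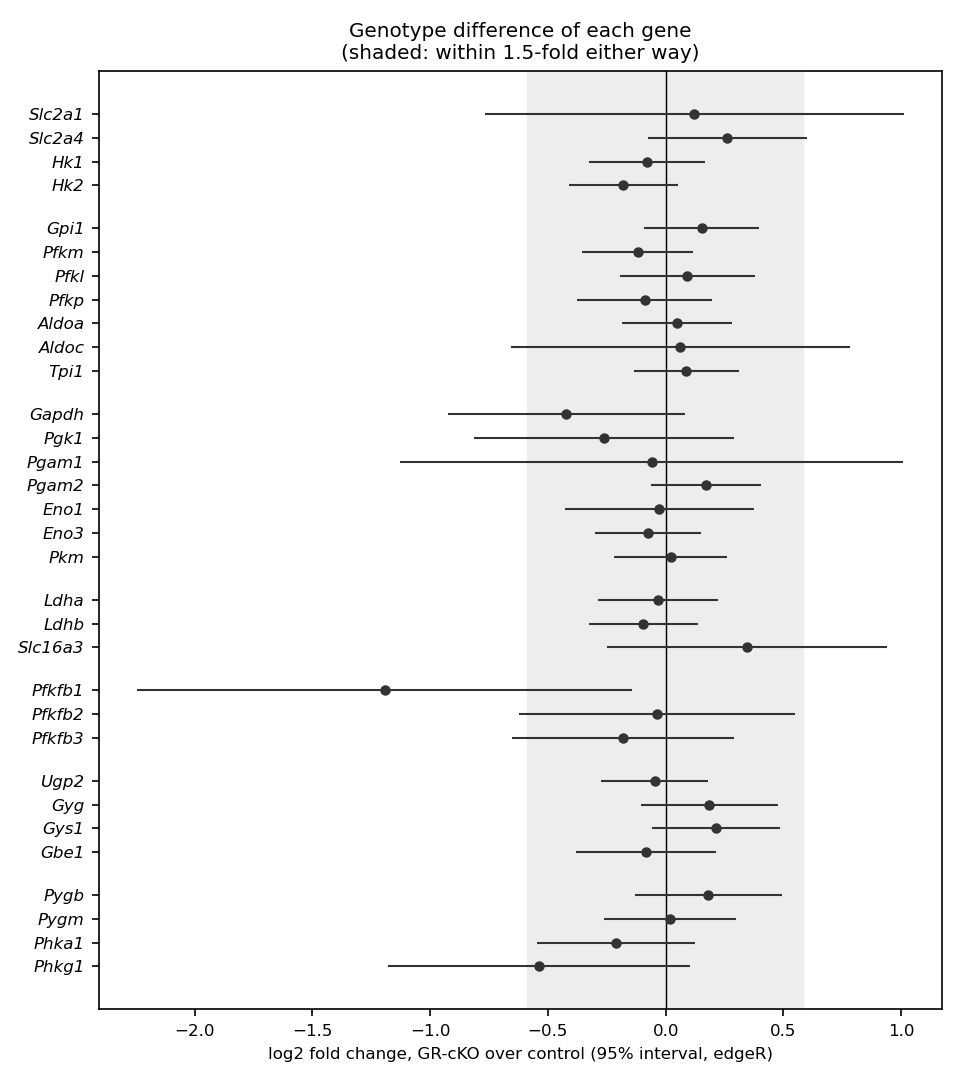
Log2 fold change of GR-cKO over control for each of the 32 genes, ordered by role from glucose entry at the top to glycogen breakdown at the bottom. Points are edgeR estimates, lines are approximate 95% intervals derived from the test statistic, and the shaded band marks 1.5-fold in either direction. The intervals of 21 genes lie inside the band, and Pfkfb1 is the one interval that does not cross 0.

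Levels spanned 3 orders of magnitude and placed muscle and heart isoforms at the top. Eno3, the muscle enolase (chr11:70657202-70662513, GRCm38, plus strand), was the most abundant member at 1523 ± 139 CPM in control hearts (SD, n = 3). Ldhb, the heart form of lactate dehydrogenase, followed at 641 ± 36.2 CPM and Aldoa, the muscle aldolase, at 607 ± 55.1 CPM, and the library values of these last 2 overlapped. Pkm (pyruvate kinase, the final step to pyruvate) at 467 ± 35.6 CPM and Pgam2 (muscle phosphoglycerate mutase) at 387 ± 35.5 CPM came next. At the other end, Pgam1 had 1.52 ± 0.0276 CPM, Pfkfb1 2.67 ± 0.540 CPM and Slc2a1 3.03 ± 1.46 CPM. The median tested gene had 13.7 CPM in control hearts. Pkm counts hold both splice forms of the gene, which share their 3′ end and cannot be separated here.

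**Figure D2:**
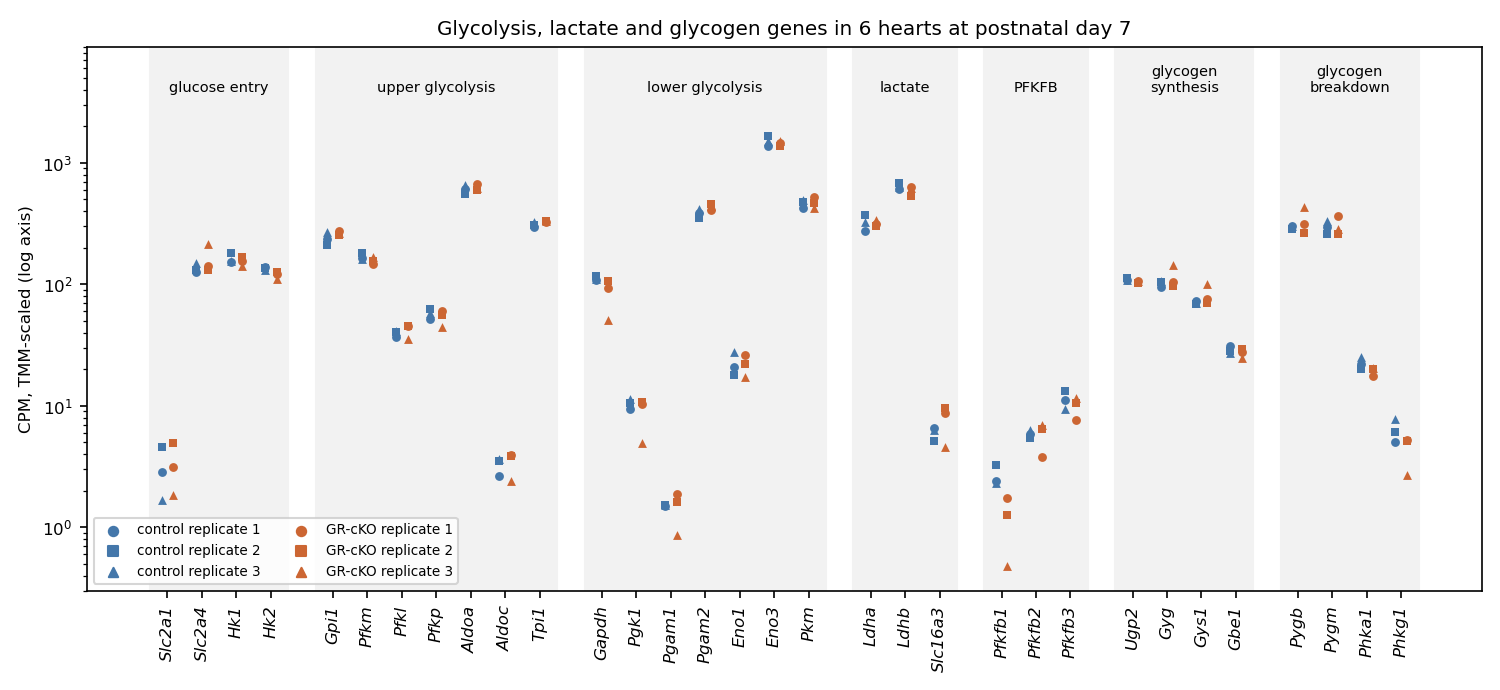
Level of each gene in each library, in TMM-scaled CPM on a log axis, grouped by role. Blue marks control and orange GR-cKO hearts, and circles, squares and triangles mark replicates 1, 2 and 3. The colours lie on top of each other for most genes, Eno3 is highest with 1372 to 1662 CPM, and the orange triangle of GR-cKO replicate 3 lies away from the rest for Slc2a4, Gapdh, Pgk1, Gys1, Gyg and Pygb.

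Some members have near-identical copies elsewhere in the genome. In a search of the members' transcripts against those of other genes, 11 members had another gene with at least 95% identity over at least 100 bases. For Pgk1 (1255 bases identical in Pgk1-rs7) and Pgam1 (765 bases identical in Pgam1-ps2) no annotated copy matched in the last 500 bases. The kit reads this end. The other 9 members, Gpi1, Aldoa, Tpi1, Gapdh, Eno1, Pkm, Ldha, Ldhb and Phkg1, had copies there. Gapdh had 95, which held 2852 reads over the 6 libraries beside 11764 for Gapdh itself. The single copy of Ldhb held 114 reads beside 73732 for Ldhb. The 4 copies of Eno1 held 0 reads, and for Gpi1, Aldoa, Tpi1, Pkm and Ldha the copies held 0 to 30 reads in all. How the counting treated reads that fit several genes is not given in the sources used here, so reads that fit several genes may have been left out or split. The levels of these 9 members are uncertain to that extent, and so are the aldolase, enolase and lactate dehydrogenase shares. The match of Phkg1 was to 8 unrelated genes and at most 191 bases long. The last 500 bases of Phkg1 and of Pfkp are also covered by exons of Sumf2 and Pitrm1 on the opposite strand, and those of Tpi1 share 34 bases with Spsb2. Without the strand setting of the counting these 3 counts are uncertain too. For 21 members, Slc2a1 among them, no near-identical copy was found. The search covered annotated transcripts only, so copies outside them would be missed. The levels of Pgk1 and Pgam1 and the mutase share are therefore not shown to be free of this uncertainty.

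At the point of glucose entry the insulin-responsive transporter dominated. Slc2a4 (chr11:69942539-69948188, minus strand) encodes the transporter that insulin brings to the surface of muscle cells, and Slc2a1 the basal transporter of the fetal heart. Slc2a4 had 127, 131 and 150 CPM in control replicates 1, 2 and 3 and 141, 133 and 216 CPM in GR-cKO replicates 1, 2 and 3. The groups overlapped, and the highest value was that of GR-cKO replicate 3. Its estimated log2 fold change, 0.26 (SE 0.159, 95% interval -0.08 to 0.60), went to 0.0053 without that library. Slc2a1 had 2.84, 4.57 and 1.68 CPM in controls and 3.13, 4.90 and 1.83 CPM in the GR-cKO group. Slc2a1 was scarce in every heart, and its groups overlapped over most of their range. Slc2a4 made up 97.8 ± 1.14% of the reads of the pair in control and 97.8 ± 1.37% in the GR-cKO group (n = 3 each, SD, exact permutation p = 0.9, 2-sided). This share comes from within each library and does not depend on the scaling between libraries. With the reads of the transporters Slc2a3, Slc2a8, Slc2a10 and Slc2a12 added to the pair, Slc2a4 made up 84.9% in control and 86.3% in the GR-cKO group. Over the 9 isoform shares tested here, every adjusted permutation p was 1, and with 3 hearts a group the smallest raw p possible is 0.1.

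The hexokinases were close to balance. Hk1, the ubiquitous enzyme that prevails in the fetal heart, had 153, 182 and 156 CPM in controls and 155, 167 and 142 CPM in the GR-cKO group. Hk2, the form that insulin and hypoxia induce in muscle, had 139, 135 and 132 CPM in controls and 121, 127 and 111 CPM in the GR-cKO group. All 3 GR-cKO hearts were below the controls for Hk2, and its log2 fold change was -0.18 (SE 0.111, 95% interval -0.41 to 0.05, unadjusted p = 0.122 and adjusted p = 0.998 by edgeR). Hk2 was 45.3 ± 2.48% of the pair in control and 43.6 ± 0.386% in the GR-cKO group (n = 3 each, SD, exact permutation p = 0.4). The share overlapped between groups, since control replicate 2 had the lowest of the 6 at 42.7%.

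Hk1 and Hk2, and likewise Ldhb and Ldha, differ in the DNA before their start. Hypoxia-inducible factors activate many glycolysis genes through sites with a core such as ACGTG, and Ldha and Hk2 are textbook targets. The sequences below are the 250 bases before the start in the RefSeq table of GRCm38.p6, 5′ to 3′ on the strand of the gene, with each match to ACGTG on either strand in capitals. They are shown for these pairs because each puts an isoform with matches to ACGTG beside one without. Other forms of the core were not searched, and the Ldhb window and the second start of Hk1 hold GCGTG. The pairs therefore differ in ACGTG and are not shown to differ in sites for these factors. Ldha (chr7:46845554-46845803, plus strand) and Hk1 (chr10:62379909-62380158, minus strand) have 2 listed starts each, and the first listed is printed. Ldhb lies at chr6:142507958-142508207 and Hk2 at chr6:82774455-82774704, both on the minus strand.
Ldha: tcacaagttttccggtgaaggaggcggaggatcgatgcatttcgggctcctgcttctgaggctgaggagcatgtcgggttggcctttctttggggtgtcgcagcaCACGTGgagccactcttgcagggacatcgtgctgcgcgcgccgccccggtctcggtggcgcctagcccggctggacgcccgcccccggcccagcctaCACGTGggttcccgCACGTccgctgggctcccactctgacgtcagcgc
Ldhb: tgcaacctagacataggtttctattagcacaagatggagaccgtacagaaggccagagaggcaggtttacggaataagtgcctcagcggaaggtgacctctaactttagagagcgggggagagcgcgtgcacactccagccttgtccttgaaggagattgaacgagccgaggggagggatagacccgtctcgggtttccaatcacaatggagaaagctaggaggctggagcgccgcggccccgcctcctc
Hk2: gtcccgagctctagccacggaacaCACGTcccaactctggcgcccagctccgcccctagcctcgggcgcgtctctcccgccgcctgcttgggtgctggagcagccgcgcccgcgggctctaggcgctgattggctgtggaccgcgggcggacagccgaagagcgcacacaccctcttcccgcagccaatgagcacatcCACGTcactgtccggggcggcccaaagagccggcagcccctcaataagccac
Hk1: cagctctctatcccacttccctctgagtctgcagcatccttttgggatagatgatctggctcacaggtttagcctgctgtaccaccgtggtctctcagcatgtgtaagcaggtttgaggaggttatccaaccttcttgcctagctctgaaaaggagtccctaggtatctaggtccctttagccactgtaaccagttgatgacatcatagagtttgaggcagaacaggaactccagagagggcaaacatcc

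The Ldha window holds 5 matches, of which CACGTG counts as 2 because it reads the same on both strands, and the Hk2 window holds 2. The other start of Ldha, Ldhb and both starts of Hk1 hold 0 matches to ACGTG. Of the 31 members with an entry in the table (Slc2a4 had none) 14, or 45.2%, had ACGTG before at least 1 start, and 18.5% of the 27025 genes in the table did. Members had more starts per gene to match, with 49 windows for 31 genes against 32851 windows for 27025 genes. Members' windows were also richer in G and C, with a median of 59.6% against 52.4% over all windows. The full palindromic glucocorticoid response element (AGAACA, 3 free bases, TGTTCT), which reads the same on both strands, was in 0 of the 31 and in 0.0111% of all genes. Since only 3 of the 27025 genes held it, the 0 among members is uninformative, and less exact forms were not searched. A match is a description of letters, and distal sites were not examined.

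In upper glycolysis Pfkm and Aldoa led their families. Gpi1, which makes fructose phosphate, had 239 ± 30.4 CPM in controls and 265 ± 8.35 CPM in the GR-cKO group (n = 3 each, SD). Phosphofructokinase sets the pace of glycolysis and has muscle (Pfkm), liver (Pfkl) and platelet (Pfkp) forms. Pfkm had 164, 181 and 163 CPM in controls and 146, 155 and 167 CPM in the GR-cKO group. Pfkl had 37.2, 40.8 and 41.2 CPM in controls and 45.5, 45.8 and 35.7 CPM in the GR-cKO group. Pfkp had 51.5, 62.5 and 57.6 CPM in controls and 60.9, 56.1 and 44.3 CPM in the GR-cKO group. All 3 genes overlapped between the groups, and GR-cKO replicate 3 was lowest for Pfkl and Pfkp. Pfkm took 63.6 ± 1.32% of phosphofructokinase reads in control and 61.9 ± 5.07% in the GR-cKO group (n = 3 each, SD, exact permutation p = 0.6). GR-cKO replicates 1 and 2, at 57.9 and 60.3%, lay below all controls (62.3 to 64.9%), and GR-cKO replicate 3 lay above them at 67.6%. The 95% Wilson interval of this share, which covers counting error only, reached at most 1.44 points each way.

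Aldolase reads were almost wholly those of Aldoa. Aldoa had 610, 551 and 661 CPM in controls and 673, 594 and 616 CPM in the GR-cKO group, and its share over Aldoc, the brain form, was 99.5 ± 0.0975% and 99.5 ± 0.132% (n = 3 each, SD, exact permutation p = 1). Another gene identifier of the same symbol, ENSMUSG00000114515, had 0 reads in every library and was not used. Aldoc ranged from 2.42 to 3.91 CPM over the 6 hearts. Since Aldoc is a brain form, the aldolase share does not set a muscle against a fetal isoform. Tpi1, which interconverts the 2 products of aldolase, had 296, 311 and 325 CPM in controls and 326, 331 and 332 CPM in the GR-cKO group. The groups did not overlap, but they nearly touched, and on the log2 scale the difference was 0.09 (SE 0.106, 95% interval -0.14 to 0.31).

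In lower glycolysis Gapdh showed the widest gap between groups, and most of it lay in 1 heart. Gapdh (chr6:125161715-125166467, minus strand), which oxidises glyceraldehyde phosphate and often serves as a reference gene, had 108, 118 and 111 CPM in controls and 93.0, 107 and 51.2 CPM in the GR-cKO group. All GR-cKO values were below all control values, and GR-cKO replicate 3 was far below the rest. On the log2 scale the difference was -0.42 (SE 0.224, 95% interval -0.92 to 0.08, unadjusted p = 0.0908 and adjusted p = 0.998 by edgeR), and -0.16 without GR-cKO replicate 3. Pgk1, the enzyme of the first ATP-yielding step, followed the same library with 9.36, 10.6 and 11.3 CPM in controls and 10.3, 10.8 and 4.95 CPM in the GR-cKO group. GR-cKO replicate 3 was lowest for Pgk1 too, and its log2 fold change of -0.26 (SE 0.263) was 0.018 without that library. The Gapdh count is uncertain because of its copies. Pkm, at 474 ± 47.3 CPM in the GR-cKO group, was within its control range in all but GR-cKO replicate 1 (523 CPM).

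The muscle forms of the mutase and of enolase took nearly all assigned reads. Pgam2 had 390, 350 and 421 CPM in controls and 413, 456 and 439 CPM in the GR-cKO group, a log2 fold change of 0.17 (SE 0.111, 95% interval -0.06 to 0.41). Pgam1, the ubiquitous form, had 1.49, 1.54 and 1.52 CPM in controls and 1.90, 1.603 and 0.861 CPM in the GR-cKO group. Pgam2 made up 99.6 ± 0.0407% of the pair in control and 99.7 ± 0.132% in the GR-cKO group (n = 3 each, SD, exact permutation p = 0.6). Eno3 had 1384, 1662 and 1522 CPM in controls and 1450, 1372 and 1519 CPM in the GR-cKO group. Eno1, the ubiquitous enolase of the fetal heart, had 20.9, 18.1 and 27.9 CPM in controls and 26.5, 22.1 and 17.2 CPM in the GR-cKO group. Eno3 was 98.5 ± 0.363% of the pair in control and 98.5 ± 0.346% in the GR-cKO group (exact permutation p = 0.8). The enolase share rests on Eno1, whose reads may have been left out where they also fit a copy. Eno3, Pgam2 and Pygm are also genes of skeletal muscle. Of 15 skeletal muscle markers Mybpc2 (8.87 to 16.0 CPM) and Tnni2 (7.13 to 13.1 CPM) were the most abundant in every library. Mylpf (3.44 CPM), Tnnc2 (2.53 CPM) and Tnnt3 (1.88 CPM) were highest in GR-cKO replicate 3. Myod1 was at 0 in every library and Myog at no more than 0.700 CPM. Whether skeletal muscle tissue contributed to these levels was not tested. The 15 together summed to 23.4 to 26.9 CPM in controls and 29.8 to 32.1 CPM in the GR-cKO group, groups that did not overlap, beside 1372 CPM or more for Eno3 alone.

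**Figure D3:**
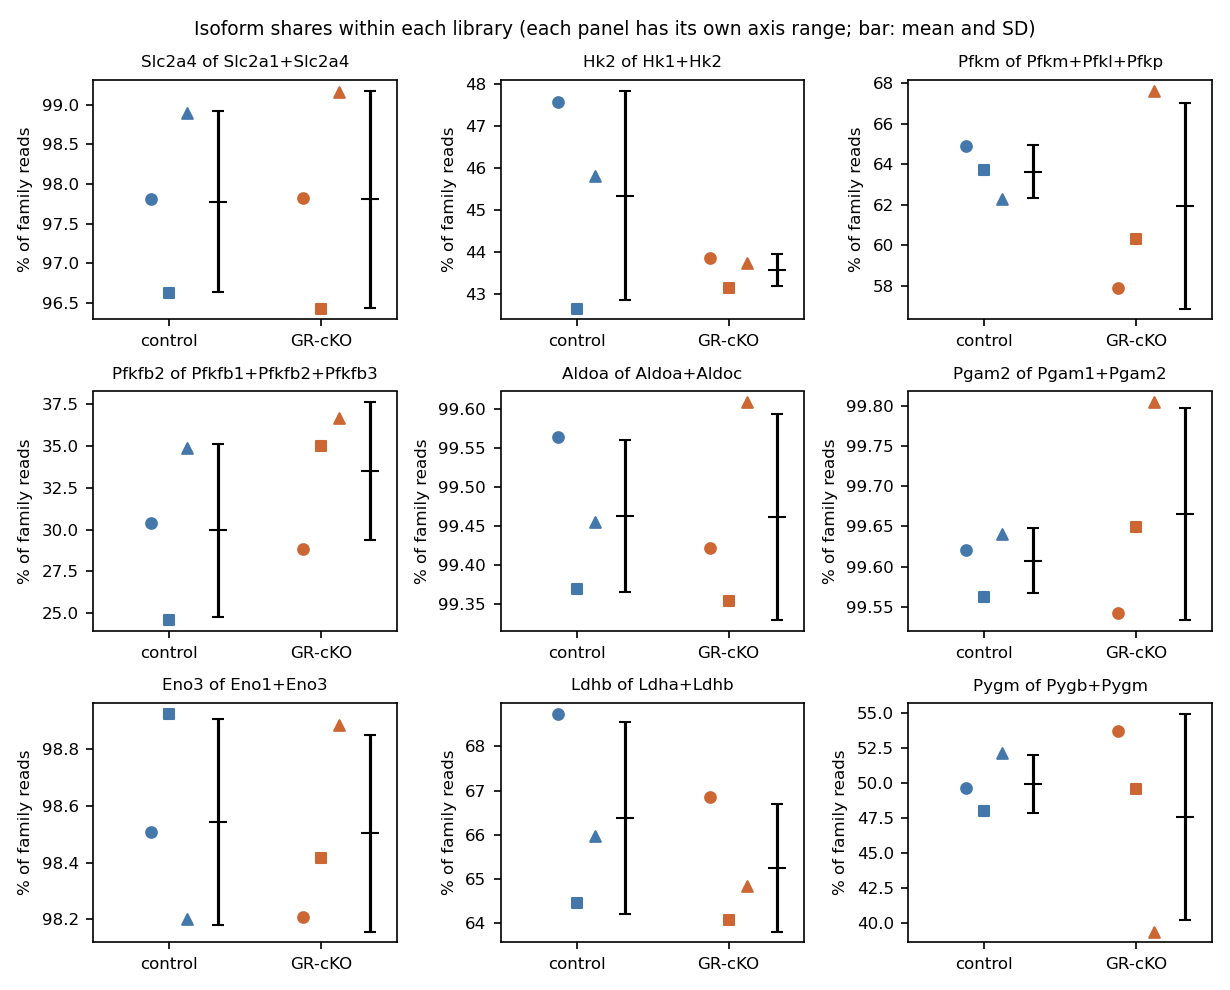
Share of the muscle, heart or insulin-responsive isoform among the reads of the listed members of its family in each library, in percent. Circles, squares and triangles are replicates 1, 2 and 3 (blue control, orange GR-cKO), black bars give mean and SD, and each panel has its own axis range. Groups overlap in all 9 families, and the widest spread within a group is that of Pygm, from 39.4 to 53.7% in the GR-cKO group.

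The heart form of lactate dehydrogenase outnumbered the muscle form in every library. Ldha encodes the subunit typical of glycolytic muscle and Ldhb the subunit typical of heart. Ldha had 277, 375 and 327 CPM in controls and 316, 302 and 338 CPM in the GR-cKO group. Ldhb had 610, 681 and 634 CPM in controls and 639, 538 and 624 CPM in the GR-cKO group. Both overlapped between groups, and control replicate 2 was the highest of 6 for both. Ldhb was 66.4 ± 2.17% of the pair in control and 65.3 ± 1.44% in the GR-cKO group (n = 3 each, SD, exact permutation p = 0.6), a difference of -1.13 points. The shares were 68.7, 64.5 and 66.0% in controls and 66.9, 64.1 and 64.8% in the GR-cKO group. Slc16a3, a lactate exporter of glycolytic cells, had 6.56, 5.14 and 6.35 CPM in controls and 8.71, 9.62 and 4.57 CPM in the GR-cKO group. GR-cKO replicates 1 and 2 were above all controls for Slc16a3 and replicate 3 below them, with a log2 fold change of 0.34 (SE 0.283). It was 0.61 without GR-cKO replicate 3 and 0.14 without GR-cKO replicate 2.

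The bifunctional enzymes, which make or remove the regulatory fructose bisphosphate that activates phosphofructokinase, were all scarce. Pfkfb1 (chrX:150588229-150643878, plus strand), known from liver and skeletal muscle, had 55, 64 and 44 reads in control and 31, 27 and 9 reads in GR-cKO hearts, or 2.40, 3.29 and 2.31 CPM against 1.73, 1.27 and 0.484 CPM. All GR-cKO hearts lay below all controls, and the log2 fold change of -1.19 (SE 0.500, 95% interval -2.24 to -0.14) was the most negative of the 32 genes. Its unadjusted edgeR p was 0.0280 and its adjusted p 0.998, so it did not pass. With each library left out in turn the log2 fold change ran from -1.58 to -0.83. Pfkfb2, the heart form, had 5.90, 5.39 and 6.29 CPM in controls and 3.80, 6.41 and 6.94 CPM in the GR-cKO group. Pfkfb3, the inducible form with high kinase activity, had 11.1, 13.3 and 9.44 CPM in controls and 7.65, 10.7 and 11.5 CPM in the GR-cKO group. For both, GR-cKO replicate 1 was the lowest of 6 and the groups overlapped. Pfkfb2 made up 30.0 ± 5.16% of the 3 genes in control and 33.5 ± 4.12% in the GR-cKO group (n = 3 each, SD, exact permutation p = 0.4). With only 236 to 444 reads per library for these 3 genes, counting error reached 5.74 points. With the reads of Pfkfb4 added, Pfkfb2 made up 23.8% in control and 25.0% in the GR-cKO group.

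Of the genes of glycogen synthesis, 2 were highest in the same GR-cKO heart. Ugp2, which makes the activated glucose donor, had 108, 113 and 108 CPM in controls and 107, 104 and 107 CPM in the GR-cKO group. The groups for Ugp2 did not overlap, yet its log2 fold change was only -0.05 (SE 0.107, 95% interval -0.27 to 0.18). Gyg, the glycogenin primer, had 94.6, 104 and 107 CPM in controls and 106, 97.3 and 145 CPM in the GR-cKO group. Gys1, the muscle glycogen synthase, had 73.0, 69.4 and 70.5 CPM in controls and 75.9, 70.9 and 100 CPM in the GR-cKO group. GR-cKO replicates 1 and 2 lay within or just above the control range for Gyg and Gys1, and replicate 3 stood above every other heart. Their log2 fold changes of 0.18 (SE 0.138) and 0.21 (SE 0.130) went to -0.0095 and 0.048 without that library. Gbe1, the branching enzyme, had 28.8 ± 1.86 CPM in controls and 27.2 ± 2.18 CPM in the GR-cKO group (n = 3 each, SD).

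Glycogen phosphorylase was shared evenly between its muscle form Pygm and Pygb, the form of brain and fetal tissue. Pygm had 299, 262 and 333 CPM in controls and 363, 259 and 284 CPM in the GR-cKO group. Pygb had 303, 284 and 305 CPM in controls and 313, 263 and 436 CPM in the GR-cKO group. Pygm was 49.9 ± 2.09% of the pair in control and 47.6 ± 7.35% in the GR-cKO group (n = 3 each, SD, exact permutation p = 0.8). The controls held to 48.0 to 52.1%, while GR-cKO replicates 1, 2 and 3 were at 53.7, 49.6 and 39.4%. For enolase, aldolase and the mutase, by comparison, Eno3, Aldoa and Pgam2 had over 98% of assigned reads in every heart. That comparison is limited, since gene copies leave the enolase and aldolase shares uncertain and the mutase share is not shown to be free of this. For Pygm and Pygb no near-identical copy was found, and Aldoc is a brain form. Phosphorylase kinase switches phosphorylase on. Its muscle subunits gave 22.4 ± 2.53 and 19.4 ± 1.45 CPM for Phka1 and 6.32 ± 1.36 and 4.34 ± 1.43 CPM for Phkg1, in controls and GR-cKO hearts (n = 3 each, SD). Phkg1 had 5.07, 6.11 and 7.76 CPM in controls and 5.25, 5.09 and 2.69 CPM in the GR-cKO group, which overlapped, with GR-cKO replicate 3 lowest. Its log2 fold change was -0.54 (SE 0.306, unadjusted p = 0.0959 and adjusted p = 0.998 by the edgeR test over all genes), and that of Phka1 -0.21 (SE 0.160). For Phkg1 it was -0.29 without GR-cKO replicate 3 and -0.36 without control replicate 3.

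GR-cKO replicate 3 was the heart most often at an extreme across the set. It was the highest or the lowest of the 6 libraries for 19 members, or 59.4%, beside 45% of all tested genes. It was highest for 6 (Slc2a4, Tpi1, Pfkfb2, Gyg, Gys1 and Pygb) and lowest for 13, among them Hk1, Hk2, Pfkl, Pfkp, Gapdh, Pgk1 and Pgam1. Control replicate 2 came next with 14 members, or 43.8%, beside 36.3% of all genes, and was highest for 10, including Ldha, Ldhb, Eno3 and Pfkm. Control replicates 1 and 3 were extreme for 21.9 and 15.6% of members (29.7 and 25.9% over all genes), and GR-cKO replicates 1 and 2 for 31.2 and 28.1% (31.4 and 31.6%). Control replicate 2 also had the highest summed level of 8 adipose markers, 289 CPM against 117 to 176 CPM in the other 5. In those 5 the sum was mostly Cidea (117 to 167 CPM, and 163 CPM in control replicate 2). Ucp1 had 89.3 CPM in control replicate 2, 18.8 CPM in GR-cKO replicate 2 and 0 to 6.78 CPM elsewhere. The high Gm42418 share and low cycling markers of GR-cKO replicate 3, and the adipose markers of control replicate 2, moved with these patterns, and their part in the results was not tested. Summed erythroid markers (9 found of 10 listed) ran from 6563 to 9231 CPM in controls and 6799 to 7787 CPM in the GR-cKO group. Smooth muscle markers summed to 870 to 1062 CPM in controls and 1220 to 1293 CPM in the GR-cKO group, mostly Acta2. In whole tissue, fewer cells of a type and less RNA per cell cannot be told apart.

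**Figure D4:**
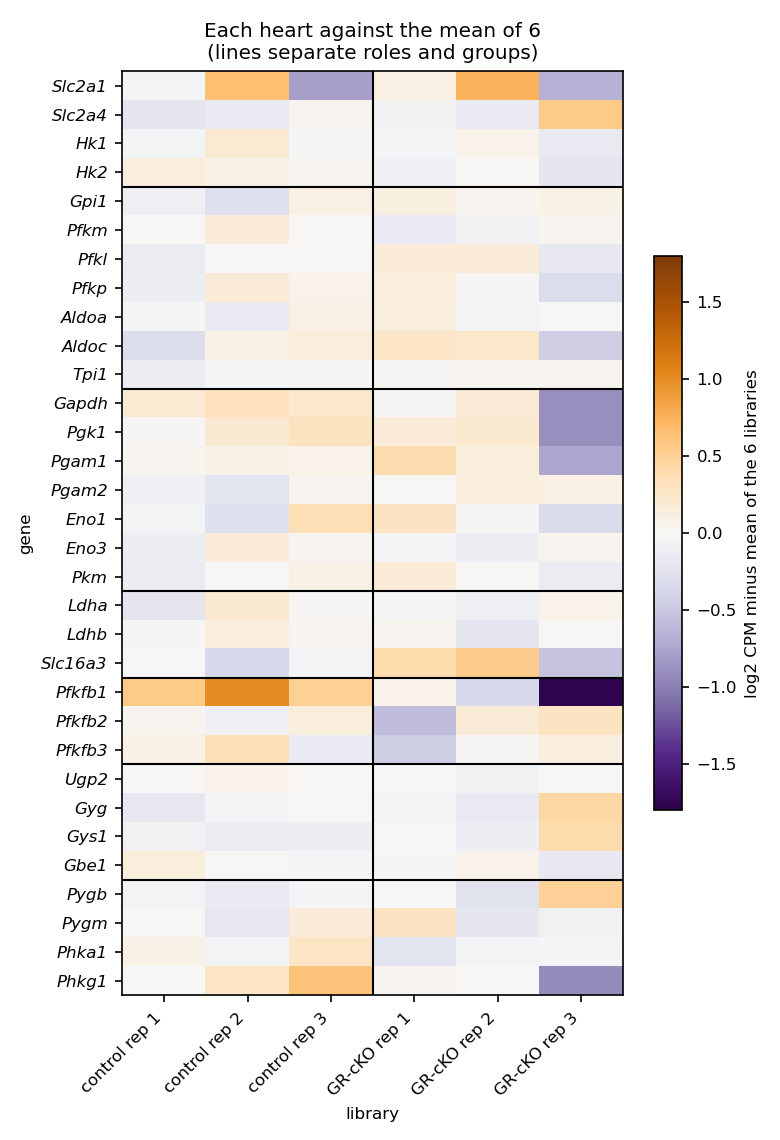
Log2 CPM of each gene in each library minus the mean of the 6 libraries, orange above and purple below that mean, with horizontal lines between roles and a vertical line between groups. The column of GR-cKO replicate 3 holds the deepest purple, for Pfkfb1 (-1.76), Gapdh, Pgk1 and Phkg1, and is orange for Slc2a4, Gyg, Gys1 and Pygb.

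Other genes of the pathway, from lists that the set does not include, gave 0 calls by edgeR as well. Of 30 further genes of glycolysis and of glucose or lactate transport 19 were tested, 1 higher and 1 lower at an unadjusted p under 0.05. Over all tested genes 2.07% were higher and 2.13% lower at that p. Slc16a1, the lactate and ketone importer of heart, had 94.5, 77.8 and 88.2 CPM in controls and 98.4, 112 and 108 CPM in the GR-cKO group (log2 fold change 0.29, SE 0.116, unadjusted p = 0.0232, adjusted p = 0.998 by edgeR). Ldhd, which oxidises D-lactate, had 3.83 ± 0.494 and 2.08 ± 0.344 CPM, and Slc2a8, an intracellular transporter, 9.64 ± 2.55 and 13.6 ± 3.36 CPM, in controls and GR-cKO hearts (n = 3 each, SD). The tissue-restricted forms Pklr, Pgk2, Gapdhs, Ldhc and Fbp1 had 0 reads in all 6 libraries. Of 28 further glycogen genes 26 were tested, 2 higher and 1 lower at that p, beside the same 2.07 and 2.13% of all tested genes. Pgm2, of the phosphoglucomutase family, had 7.70 ± 0.938 and 5.07 ± 0.510 CPM. The kinase subunits Prkag1 (132 ± 18.3 and 164 ± 33.2 CPM) and Prkag2 (90.2 ± 18.5 and 111 ± 12.6 CPM) belong to AMP-activated kinase, which senses low energy.

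Regulators and hypoxia-responsive genes had 24 tested members, with 8 positive and 16 negative log2 fold changes and a median of -0.06 (0.01 over all genes). At an unadjusted p under 0.05 there were 0, beside 4.2% of all tested genes. Hif1a, a hypoxia-inducible factor, had 100, 82.8 and 102 CPM in controls and 99.3, 111 and 94.5 CPM in the GR-cKO group, which overlapped. Epas1, the related factor of endothelium, had 172, 160 and 159 CPM in controls and 149, 132 and 140 CPM in the GR-cKO group, all below the controls (log2 fold change -0.22, SE 0.111). Egln3, an oxygen sensor that these factors induce, had 36.4 ± 5.30 and 29.6 ± 4.46 CPM, and Bnip3, a mitophagy receptor, 49.8 ± 7.27 and 42.0 ± 2.31 CPM (n = 3 each, SD). None passed, with adjusted p-values of 0.998 by edgeR.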

How the data were processed

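Each deposited file gives raw read counts by Ensembl gene for 1 library. Per the labels' protocols, libraries were made from total RNA with a 3′ mRNA kit. Per the submitters' processing notes, tools included cutadapt 1.16, STAR 2.5.4a and featureCounts 1.6.2 on GRCm38. The sources used here do not give the annotation release, strand setting or handling of multi-mapping reads.

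Of 52649 features, 99 spike-in sequences entered neither totals nor tests. Of 52550 mouse identifiers 52403 matched a GENCODE M21 symbol. With edgeR 4.0.16 in R 4.3.3, filterByExpr kept 14860 genes, TMM set the scaling, and genotype was tested with the robust quasi-likelihood F test at an adjusted p of 0.05. CPM are relative to reads of tested genes. Isoform shares were compared by 2-sided exact permutation. Intervals of shares cover counting error only, since the labels name no molecular identifiers. Near-identical copies were searched with blastn. Alternatives were other scalings, no filter, DESeq2 1.42.0, limma 3.58.1 (voom), a replicate block and leaving out each library. All 32 members were named by rule, with values in every library for isoform families and the 3 other members of smallest p. Aldoc was given as a range instead, and Tpi1, Pgk1, Slc16a3, Ugp2 and Gyg were given in every library outside this rule. From each further list up to 3 genes of smallest p were named. Members and lists were chosen with earlier results of these data known. Other genes were named after their values were seen.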

Additional observations from a re-analysis of the deposited data

How the results depend on the processing

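Under every alternative 0 members were called. DESeq2 called 1 gene higher and 3 lower of all tested, library totals 2 lower, and edgeR without the low-count filter 4 higher and 6 lower. Without 1 library edgeR called 1 to 2 genes lower (2 without GR-cKO replicate 2 or 3). Members at an unadjusted p under 0.05 were 2 with DESeq2, 2 with limma voom, 3 without the filter, 0 with spike-in scaling and 0 to 5 without 1 library (5 without GR-cKO replicate 2, 0 without control replicate 2). Members without overlap were 3 by library totals, 2 by spike-in scaling and 6 to 10 without 1 library. The last were 18.8 to 31.2% of members, beside 17.8 to 21.5% of all genes (8 members without control replicate 1 or 3, 10 without GR-cKO replicate 3). Spike-in scaling turned the members' median log2 fold change to 0.021 (0.055 over all genes) and the log2 fold changes of Pgam1 (0.029), Eno1 (0.028), Ldha (0.013) and Ugp2 (0.0019), and library totals those of Pkm (-0.010) and Pygm (-0.017). As a log2 ratio the Aldoa share difference turned to 0.011.

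Replicate numbers are in the labels of both groups. Deviations from the group means correlated at 0.17, 0.09 and 0.02 between same-numbered libraries, and at -0.16 to 0.06 between differently numbered ones. GR-cKO replicate 3 correlated best with control replicate 2 (0.06). These values do not settle whether the numbers mark pairs, and the main test did not take them as pairs. A replicate block gave 2 members at an unadjusted p under 0.05 and 0 calls among members.

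Without 1 library in turn, log2 fold changes changed direction for Slc2a1 (-0.29 to 0.54), Hk1 (-0.14 to 0.0035), Pfkp (-0.18 to 0.032), Aldoa (-0.017 to 0.11), Aldoc (-0.065 to 0.26), Pgk1 (-0.45 to 0.018), Pgam1 (-0.29 to 0.21), Eno1 (-0.18 to 0.16), Pkm (-0.053 to 0.088), Ldha (-0.14 to 0.080), Pfkfb2 (-0.19 to 0.19), Gyg (-0.0095 to 0.29), Pygb (-0.047 to 0.33) and Pygm (-0.13 to 0.12). So did share differences, in points, of Slc2a4 (-0.649 to 0.717), Pfkm (-4.53 to 0.333), Aldoa (-0.0752 to 0.0523), Pgam2 (-0.0114 to 0.120), Eno3 (-0.232 to 0.148), Ldhb (-2.10 to 0.0409) and Pygm (-5.42 to 1.72). The 9 members under 20 CPM had standard errors of 0.224 to 0.509 (log2), and how much of that is counting noise was not tested.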

Other observations

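The branches that leave glycolysis for the pentose phosphate, polyol and hexosamine pathways were listed too, 17 genes, all tested. Of these 0 passed the edgeR test over all genes, and at an unadjusted p under 0.05 there were 2 higher and 0 lower. Over all tested genes 2.07% were higher and 2.13% lower at that p. The groups did not overlap for 5 of the 17, beside 9.97% of all tested genes in either direction. Of the 5, 4 were higher in GR-cKO hearts (Pgls, Pgd, Tkt and Khk), beside 4.7% of all tested genes that were higher without overlap. This count is given by TMM scaling only. The oxidative arm, which makes NADPH, begins with G6pdx, and that gene had 1.64 to 2.45 CPM in controls and 2.07 to 2.47 CPM in the GR-cKO group. Pgls, the next enzyme of that arm, had 126, 108 and 133 CPM in controls and 142, 151 and 163 CPM in the GR-cKO group, with a log2 fold change of 0.31 (SE 0.118, unadjusted p = 0.0153, adjusted p = 0.998 by edgeR). Pgd, the enzyme that follows, had 84.0, 76.7 and 81.2 CPM in controls and 91.0, 85.7 and 91.0 CPM in the GR-cKO group. Tkt, the transketolase that leads back to glycolysis, had 21.8, 18.6 and 23.4 CPM in controls and 27.0, 29.0 and 26.7 CPM in the GR-cKO group. Taldo1, its partner, had 161 to 185 CPM in controls and 158 to 195 CPM in the GR-cKO group, which overlapped. Sord, of the polyol route, was lower in 3 of 3 GR-cKO hearts, at 74.9 ± 3.44 CPM in controls and 64.6 ± 6.38 CPM in the GR-cKO group (unadjusted p = 0.0850 and adjusted p = 0.998 by the edgeR test over all genes).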
